A study of Homo sapiens with 30 samples.

Results

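LX2 cells given docosahexaenoic acid (DHA) and then betacellulin (BTC) were compared with LX2 cells given BTC without a fatty acid. The 10 libraries of these groups, 5 of DHA+BTC and 5 of Veh+BTC, were taken from 30 libraries in 6 groups by their labels, and were paired by the experiment number, 1 library of each group in each of 5 experiments. LX2 is an established human cell line, made from hepatic stellate cells in their activated state. DHA, a fatty acid with 22 carbons and 6 double bonds (ω3), was given at 50 µM, bound to albumin at 20 µM, for 2 periods of 48 h each. Elsewhere the labels state its duration as 96 h or 72 h. BTC was used at 20 ng/ml for 72 h in medium with 1% serum, which all cultures shared, and 1 field of the protocol leaves it unclear whether the fatty acid was kept on during that time. The Veh+BTC cultures carry the medium and BTC in their labels, and the sources used here do not say whether they received albumin. Oleic acid (OLA+BTC, 18 carbons and 1 double bond, ω9, at the same dose) and the cultures without BTC (DHA+Veh, Veh+Veh) are used only where named. RNA was read by QuantSeq 3′ tag sequencing, in which reads come from near the polyadenylated end of a transcript.

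Hepatic stellate cells store retinoid in the healthy liver. On injury they turn into contractile, matrix-producing cells, and LX2 models this activated state as a single line grown on plastic. BTC is a ligand of the ErbB receptors EGFR and ERBB4, which signal through the ERK pathway among others. DHA is known as a ligand of PPAR nuclear receptors, as a lipid that lowers the activity of SREBP-1, a factor that drives lipid synthesis genes, and as a lipid whose many double bonds are easily oxidized.

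Of the 15137 genes tested, 537 differed between DHA+BTC and Veh+BTC at an adjusted p under 0.05 (limma, with the experiment as a term). That is 3.55% of the genes tested, with 164 genes higher after DHA (1.08%) and 373 lower (2.46%). At least a 2-fold change on the log2(CPM + 1) scale was seen for 115 of the genes called higher and 220 of those called lower. Of the 537 genes, 373 changed in the called direction in 5 of 5 experiments, 161 in 4 and 3 in 3. In 22 of the genes called higher and 37 of those called lower the 5 libraries of one group lay entirely above or below those of the other, against 33 genes (0.218%) and 82 genes (0.542%) among all tested. The median difference over all genes tested was -0.14 on the log2 scale, so the deposited scaling placed most genes slightly lower after DHA. With median-of-ratios scaling that median was -0.05 and 226 genes were called higher and 223 lower, and with quantile normalization it was -0.01 with 214 higher and 225 lower. On the recovered reads, edgeR called 170 higher and 100 lower and DESeq2 291 higher and 239 lower.

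The number of calls depended on the fit and on single libraries. Without the experiment term 1 gene was called, and with the experiment term but only these 10 libraries in the fit 9 genes were called, 7 higher and 2 lower. Those 9 were ANGPTL4, CXCL8, TFPI2, STC1, MMP1, GDF15 and PLIN2, all higher, and IGFBP5 and CCN2, both lower. Leaving out DHA+BTC 5 left 179 calls and leaving out Veh+BTC 5 left 205. Leaving out DHA+BTC 3, DHA+BTC 4 or Veh+BTC 3 left 344, 348 and 354 calls, and without DHA+BTC 2 there were 1101. Without the 3 libraries with the fewest reads (DHA+BTC 5, DHA+Veh 5 and DHA+BTC 4) there were 79 calls, 43 higher and 36 lower. The genes described below number 121, all called, and each kept its direction under every alternative in which it was tested. Of these, 51 kept their call when any 1 of the 10 libraries was left out.

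The 10 libraries held 1245182 to 5425009 reads. DHA+BTC libraries held 2817618 ± 1057621 reads (SD, n = 5) and Veh+BTC libraries 4267429 ± 866785 (n = 5), with fewer reads after DHA in 4 of 5 experiments (exact sign-flip permutation test, two-sided p = 0.125, where the smallest p possible is 0.0625). The share of reads from mitochondrial genes was 2.37% after DHA and 3.14% after vehicle, lower in 5 of 5 experiments (the same exact test, p = 0.0625, adjusted p = 0.25 over 5 library measures). The part of depth and of this share in the differences below was not tested, beyond the values without the shallowest libraries and with all libraries thinned to 1245182 reads, where 387 genes were called. With 0 reads for a gene in DHA+BTC 5, its level there may still be as high as 2.41 CPM, for counting error only. The 13 stellate cell and fibroblast markers summed to 2103 to 3462 CPM after DHA and to 1944 to 3934 CPM after vehicle, with none at 0 in all 10 libraries. LRAT, which marks retinoid storage, had 0 reads and desmin (DES) 1 read in the 10 libraries together. Leukocyte markers summed to 13.4 to 64.2 CPM and 14.7 to 58.5 CPM, with CD3E at 0, and endothelial markers to 2.23 to 10.7 CPM and 0.591 to 9.69 CPM, with LYVE1 and STAB2 at 0. Hepatocyte and epithelial markers summed to 149 to 319 CPM after DHA and 166 to 712 CPM after vehicle, with TTR at 0, and KRT18, a keratin of simple epithelia, was called lower (-0.87, adjusted p = 0.02). The call of KRT18 ended without DHA+BTC 3, 4 or 5 or Veh+BTC 3 or 4 (adjusted p = 0.0563 to 0.0888). In bulk RNA, fewer cells that express a gene and less of its RNA per cell cannot be told apart.

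**Figure D1:**
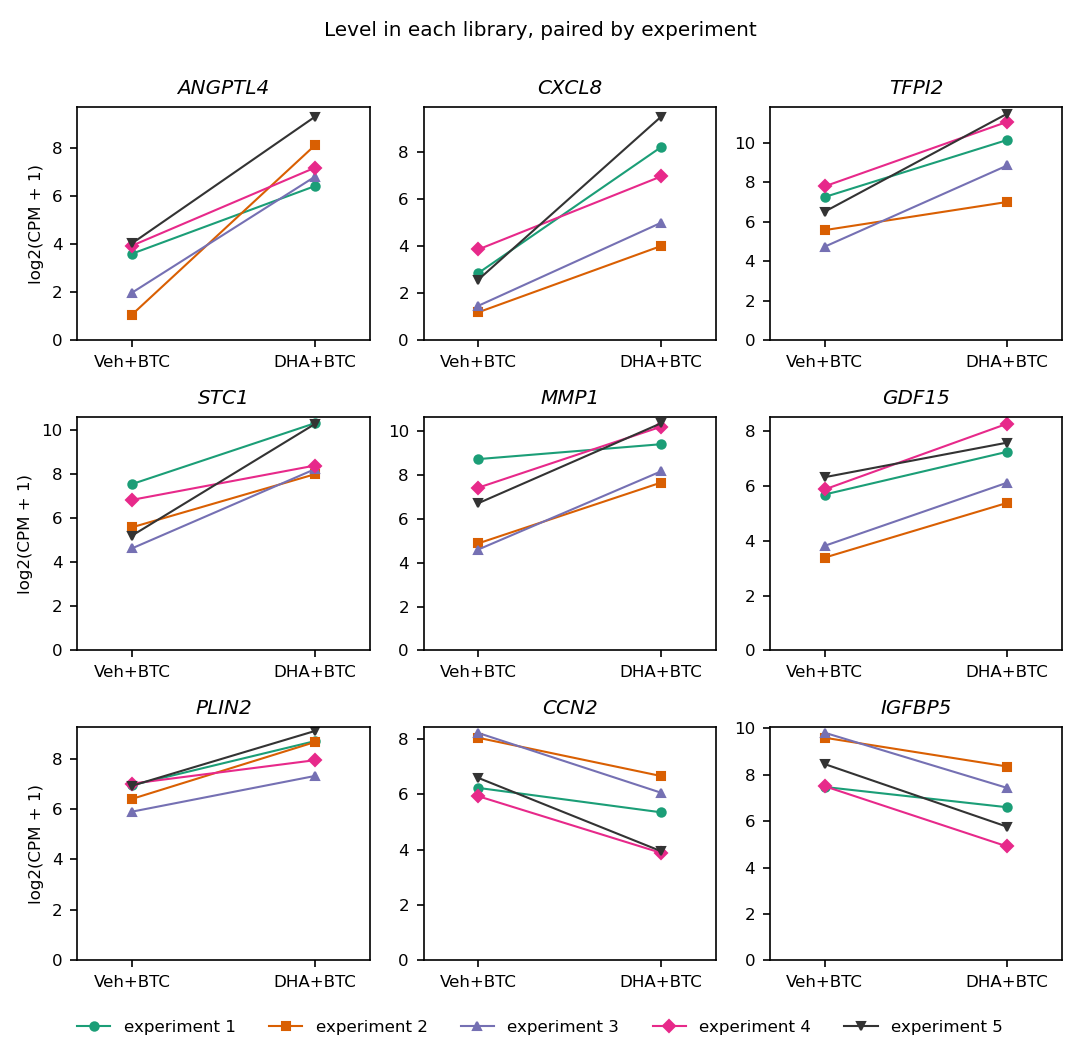
Level of 9 genes in each library, in log2(CPM + 1), with Veh+BTC on the left and DHA+BTC on the right of each panel and a line joining the libraries of an experiment. The 9 genes are those called also when only these 10 libraries were fitted, and all 5 lines of each panel run in 1 direction.

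The largest rise was that of ANGPTL4, a secreted inhibitor of lipoprotein lipase and a target of PPAR receptors. In experiments 1 to 5 ANGPTL4 stood at 83.7, 272, 109.8, 143 and 620.0 CPM (counts per 1000000 reads) after DHA and at 11.1, 1.11, 2.96, 14.3 and 15.4 CPM after vehicle. Every DHA library lay above every vehicle library. The limma difference for ANGPTL4 was 4.62 ± 0.45 (SE) on the log2(CPM + 1) scale (adjusted p = 3.41e-07, higher in 5 of 5 experiments), a 24.6-fold rise on that scale, and it was the only gene of the 121 still called without the experiment term (adjusted p = 0.000311). PLIN2, the coat protein of lipid droplets, also rose without overlap. PLIN2 was at 411, 401, 157, 243 and 544 CPM after DHA and at 122, 83.5, 58.5, 128 and 120.4 CPM after vehicle, again in the order of the experiments. This gave PLIN2 a log2 difference of 1.70 ± 0.28 (SE, higher in 5 of 5 experiments, adjusted p = 0.000847).

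Other genes of fatty acid handling moved in both directions. Of 24 tested PPAR target and fatty acid oxidation genes, 2 were called higher (ANGPTL4 and CPT1A) and 2 lower (UCP2 and ECI1), and the list's median difference was -0.11, against -0.14 for all genes. CPT1A, which loads long fatty acids for entry into mitochondria, rose by 0.78 on the log2 scale, with a mean of 432 CPM against 263 CPM. UCP2, a carrier of the inner mitochondrial membrane, was lower without overlap, at 17.2 to 35.3 CPM after DHA and 44.2 to 104 CPM after vehicle (-1.15 on the log2 scale, adjusted p = 0.0109). ECI1, an isomerase needed to oxidize unsaturated fatty acids, differed by -0.78. Of 15 tested genes of lipid droplets and triglyceride turnover, 3 were called higher (PLIN2, G0S2 and HILPDA) and 2 lower (PNPLA3 and LIPE), with a median of -0.18. G0S2 and HILPDA, which encode inhibitors of the triglyceride lipase ATGL, rose by 2.60 and 0.85. LIPE, the hormone-sensitive lipase, and PNPLA3, a droplet protein, differed by -0.97 and -1.25. Calls that ended on leaving out 1 library were those of CPT1A (DHA+BTC 3 or 5 or Veh+BTC 2, 3 or 5, adjusted p = 0.0558 to 0.0926), UCP2 (Veh+BTC 5, adjusted p = 0.0536) and ECI1 (DHA+BTC 5 or Veh+BTC 1 or 5, adjusted p = 0.0545 to 0.101). Calls ended in the same way for G0S2 (DHA+BTC 3 or 5 or Veh+BTC 1 or 5, adjusted p = 0.0645 to 0.111), HILPDA (DHA+BTC 4 or 5 or Veh+BTC 3 or 5, adjusted p = 0.0556 to 0.0924), PNPLA3 (DHA+BTC 5 or Veh+BTC 5, adjusted p = 0.0764 to 0.0866) and LIPE (DHA+BTC 3, 4 or 5 or Veh+BTC 2, 3, 4 or 5, adjusted p = 0.0702 to 0.135). With the 3 shallowest libraries left out, 1 member of each of these lists was called higher (ANGPTL4 and PLIN2), and 1 of the first was called lower.

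Of 22 tested genes of cholesterol synthesis and uptake none was called higher and 7 were called lower, and 21 of 22 had a negative difference, with a median of -0.69. MVK and MVD, enzymes of the mevalonate pathway, were lower without overlap. Levels of MVK were 64.2, 161, 117, 172 and 35.3 CPM after DHA and 302, 190.4, 275, 294 and 209 CPM after vehicle, in the same order. The difference for MVK was -1.40 ± 0.28 (SE, adjusted p = 0.00436), lower in 5 of 5 experiments. MVD stood at 22.5 to 99.0 CPM against 103 to 236 CPM (-1.35, adjusted p = 0.00649). The squalene synthase FDFT1 (-0.79), the lanosterol synthase LSS (-0.82), the late enzymes EBP (-0.66) and DHCR7 (-1.13) and the acetyl-CoA acetyltransferase ACAT2 (-0.88) were the other members called. HMGCS1, the synthase that acts before mevalonate is made, had a difference of -0.68 with a 95% interval from -1.23 to -0.14 (adjusted p = 0.145). The removal of 1 library ended the calls of FDFT1 (DHA+BTC 3, adjusted p = 0.0525), LSS (DHA+BTC 3 or Veh+BTC 1, 3 or 4, adjusted p = 0.0569 to 0.0932), EBP (DHA+BTC 3 or 5 or Veh+BTC 3 or 5, adjusted p = 0.0521 to 0.0838), DHCR7 (DHA+BTC 5 or Veh+BTC 5, adjusted p = 0.0545 to 0.0642) and ACAT2 (DHA+BTC 5 or Veh+BTC 5, adjusted p = 0.0545 to 0.0676). In the fit without those 3 shallow libraries, 3 of the 22 were called, all lower, and edgeR also called 3 lower.

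Of 23 tested genes of fatty acid synthesis and desaturation, 5 were called lower and none higher, with a median of -0.47 and 21 negative differences. The count was 0 in edgeR, 4 in DESeq2, 1 each after median-of-ratios scaling and quantile normalization, and 2 each at equal depth and without the 3 shallowest libraries, all lower. The 5 genes were ACACA, which makes malonyl-CoA (-0.76), the desaturases SCD (-0.96) and FADS1 (-0.56), the acyl-CoA synthetase ACSL3 (-1.06) and TMEM97, a sterol-regulated membrane protein (-0.75). FASN, the fatty acid synthase, stood at 309 ± 252 CPM after DHA and 437 ± 84.3 CPM after vehicle (SD, n = 5, adjusted p = 0.0791 in limma), which did not pass. Leaving out 1 library ended the calls of ACACA (DHA+BTC 5 or Veh+BTC 3 or 5, adjusted p = 0.0535 to 0.0699), SCD (DHA+BTC 3, 4 or 5 or Veh+BTC 2, 3, 4 or 5, adjusted p = 0.0674 to 0.168), FADS1 (DHA+BTC 1, 3, 4 or 5 or Veh+BTC 1, 2, 3 or 5, adjusted p = 0.0515 to 0.154), ACSL3 (DHA+BTC 3, 4 or 5 or Veh+BTC 2, 3, 4 or 5, adjusted p = 0.0547 to 0.191) and TMEM97 (DHA+BTC 3, adjusted p = 0.0578). Of 12 tested LXR targets and sterol efflux genes only MYLIP, a ubiquitin ligase, was called (-1.43, adjusted p = 0.0401). Among all genes tested 3.55% were called. The call of MYLIP ended without DHA+BTC 1, 3, 4 or 5 or Veh+BTC 2, 3 or 5 (adjusted p = 0.055 to 0.175). ABCA1, the cholesterol exporter, had a difference of 0.51 (-0.29 to 1.31). The promoters of 5 of the 7 called cholesterol genes were in the RefSeq table used (GRCh38.p14, 250 bases before to 50 after the start of each gene), and none of the 5 held TCACNCCAC, a form of the sterol response element, on either strand. The letters were found in 1.15% of 27305 such promoters.

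**Figure D2:**
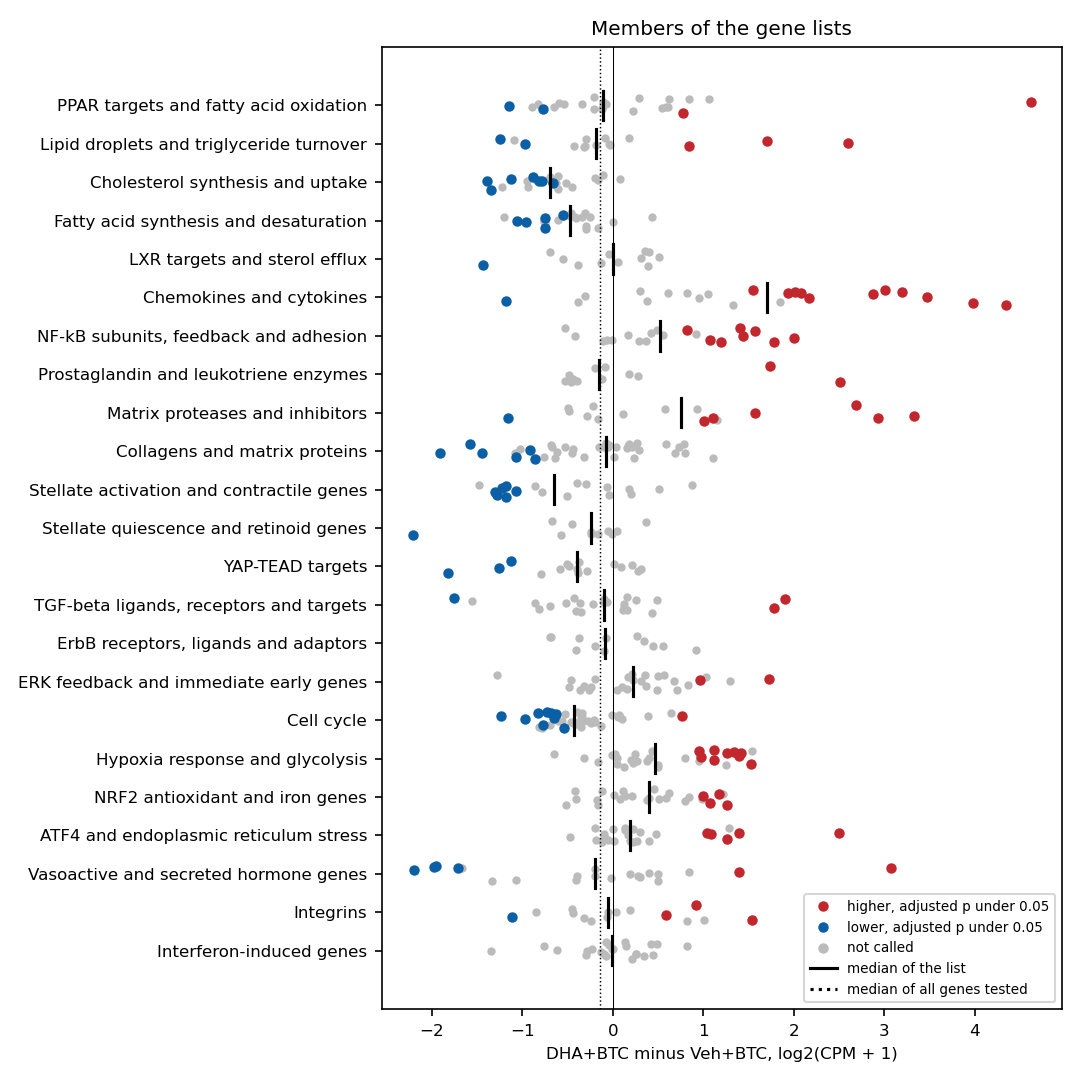
Difference between DHA+BTC and Veh+BTC, in log2(CPM + 1), for each tested member of 23 gene lists, 1 row per list. Red and blue points are genes called higher and lower, grey points were not called, short bars are list medians and the dotted line is the median of all genes tested (-0.14). The chemokine and cytokine row has the highest median (1.70, or 1.44 without the 4 members that reached the level for testing only with the libraries given DHA) and the cholesterol row has all but 1 point left of 0.

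Of 22 tested chemokine and cytokine genes 11 were called higher, 1 lower and 10 neither, with a median of 1.70 and 19 positive differences. CCL20, IL1A, IL24 and IL33 reached the level for testing only with the libraries given DHA, so higher levels in some of those libraries were a condition of their being tested. Of the other 18 members 8 were called higher and 1 lower, with a median of 1.44 and 15 positive differences. The promoters of CXCL8, CXCL1, CXCL3, CXCL5 and CXCL6, neutrophil-attracting chemokines that lie in 1 cluster on chromosome 4, carry the letters GGNNTTTCC, a form of the site bound by NF-kB. These windows are shown because the 5 genes were called together. They are RefSeq sequence from GRCh38.p14, read in the direction of each gene, with the motif in capitals and its start 91, 78, 78, 90 and 89 bases before the start of the gene, in the order listed:
CXCL8: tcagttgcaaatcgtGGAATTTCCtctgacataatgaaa
CXCL1: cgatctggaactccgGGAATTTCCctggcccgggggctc
CXCL3: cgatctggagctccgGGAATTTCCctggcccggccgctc
CXCL5: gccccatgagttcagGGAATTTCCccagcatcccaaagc
CXCL6: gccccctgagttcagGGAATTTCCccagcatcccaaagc
The windows lie at chr4:73740463-73740501 (plus strand), chr4:73869300-73869338 (plus), chr4:74038744-74038782 (minus), chr4:73998744-73998782 (minus) and chr4:73836574-73836612 (plus). The 9 motif letters are identical in all 5, and CXCL1 and CXCL3 each held another match 53 bases before the start of the gene. The letters were found on either strand in 5 of the 10 chemokine and cytokine genes called higher that had a promoter in the table, not in the promoter of CXCL12, called lower, in 3 of 4 not called (CXCL2, CCL20 and IL6) and in 6.26% of 27305 promoters. A match is a run of letters and was not tested as a site.

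CXCL8, interleukin 8, rose most among them. The 5 DHA libraries gave 295, 15.1, 30.9, 124 and 724 CPM for CXCL8 and the vehicle libraries 6.27, 1.29, 1.77, 13.6 and 4.98 CPM, in the order of the experiments. The groups did not overlap, and the highest DHA library was that of experiment 5. CXCL8 differed by 4.34 ± 0.64 (SE) on the log2 scale and was higher in 5 of 5 experiments (adjusted p = 0.000286). CXCL1 acts on the same receptor, CXCR2. CXCL1 stood at 284, 14.8, 52.3, 242 and 585 CPM after DHA and at 12.5, 14.7, 5.02, 57.4 and 12.7 CPM after vehicle in experiments 1 to 5. In experiment 2 the CXCL1 levels were nearly equal, and in the other 4 experiments DHA was higher. This gave CXCL1 a log2 difference of 3.01 ± 0.54 (SE, higher in 5 of 5 experiments, adjusted p = 0.0018). CXCL1, CXCL2 and CXCL3 are near-identical copies, so reads may have been shared among them, and CXCL3 differed by 3.47 without overlap. CXCL5 and CXCL6 rose by 2.17 and 1.54. CXCL2 was at 13.1 ± 13.9 CPM against 2.00 ± 2.96 CPM (SD, n = 5) and did not pass (adjusted p = 0.121 in limma).

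CSF3, the granulocyte growth factor, was near 0 in most vehicle libraries. CSF3 was at 31.7, 0, 20.4, 82.9 and 434 CPM after DHA and at 0, 0.184, 0.296, 9.52 and 0.623 CPM after vehicle, again in the order of the experiments. The difference for CSF3 was 3.98 ± 0.83 (SE, adjusted p = 0.0067), higher in 4 of 5 experiments. IL1B, a central inflammatory cytokine, showed a wide spread over experiments. Levels of IL1B were 416, 21.8, 98.7, 335 and 199 CPM after DHA and 6.27, 17.5, 21.3, 60.7 and 4.36 CPM after vehicle, in the same order. IL1B differed by 3.20 ± 0.61 (SE) on the log2 scale and was higher in 5 of 5 experiments (adjusted p = 0.0031). IL11 (2.02), IL24 (2.87), IL33 (2.08) and IL1A (1.94) were also called higher. CXCL12, the stellate chemokine that binds CXCR4, was the member called lower. The 5 DHA libraries gave 70.5, 153, 44.8, 38.3 and 57.8 CPM for CXCL12 and the vehicle libraries 178, 220.3, 94.9, 78.8 and 229.7 CPM, in the order of the experiments. This gave CXCL12 a log2 difference of -1.18 ± 0.19 (SE, lower in 5 of 5 experiments, adjusted p = 0.000517). CCL2, the monocyte chemokine, had a difference of 1.33 (0.08 to 2.58) and IL6 of 0.82 (-0.21 to 1.85), and neither passed. Calls that ended on leaving out 1 library were those of IL24 (DHA+BTC 5 or Veh+BTC 5, adjusted p = 0.0572 to 0.0728), IL1A (DHA+BTC 5, adjusted p = 0.064), CXCL5 (DHA+BTC 5, adjusted p = 0.0597) and CXCL6 (DHA+BTC 3, 4 or 5 or Veh+BTC 1 or 5, adjusted p = 0.0849 to 0.136). After removal of the 3 shallowest libraries, 4 of the 22 members were called higher and 1 lower.

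Of 20 tested NF-kB subunits, feedback and adhesion genes, 8 were called higher and none lower, with a median of 0.52. ICAM1, a leukocyte adhesion molecule, was called in each single-library removal. ICAM1 stood at 91.6, 30.7, 50.1, 79.8 and 108 CPM after DHA and at 29.6, 16.0, 11.2, 54.0 and 58.9 CPM after vehicle in experiments 1 to 5. The difference for ICAM1 was 1.19 ± 0.26 (SE, adjusted p = 0.00796), higher in 5 of 5 experiments. NFKBIA, the inhibitor of NF-kB that NF-kB itself induces, stood at 938 ± 515 CPM after DHA and 421 ± 176 CPM after vehicle (SD, n = 5). The other members called higher were TNFAIP6 (2.00), TRAF1 (1.78), TNFAIP8 (1.57), NFKBIZ (1.44), IRAK2 (1.41) and TNIP1 (0.82). The subunits did not pass the test, and neither did TNFAIP2, TNFAIP3, BIRC3, NFKBIB, NFKBIE, VCAM1 and BCL3. The subunit NFKB1 had 0.37 (-0.24 to 0.97) and RELB had 0.42 (-0.10 to 0.94). When 1 library was left out, calls ended for NFKBIA (DHA+BTC 5 or Veh+BTC 5, adjusted p = 0.0768 to 0.0808), TNFAIP6 (DHA+BTC 1, 4 or 5 or Veh+BTC 1, 3, 4 or 5, adjusted p = 0.0678 to 0.244) and TRAF1 (DHA+BTC 4 or 5 or Veh+BTC 5, adjusted p = 0.0666 to 0.136). Calls ended in the same way for TNFAIP8 (DHA+BTC 5 or Veh+BTC 5, adjusted p = 0.0637 to 0.0676), NFKBIZ (DHA+BTC 5 or Veh+BTC 2 or 5, adjusted p = 0.0633 to 0.136), IRAK2 (DHA+BTC 3 or 5 or Veh+BTC 2 or 5, adjusted p = 0.0673 to 0.1) and TNIP1 (DHA+BTC 3 or 5 or Veh+BTC 4 or 5, adjusted p = 0.0574 to 0.125). Without the 3 shallowest libraries 2 of the 20 were called, both higher. The motif GGNNTTTCC was found in the promoters of 3 of the 8 called members and of 7 of the 10 not called that were in the table.

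Of 12 tested enzymes of prostaglandin and leukotriene synthesis, 2 were called higher, PTGS2 and PTGES, which act in turn to make prostaglandin E. The median of the 12 was -0.16, and 1.08% of all genes tested were called higher. PTGS2 was at 18.0, 0.270, 2.47, 10.3 and 80.3 CPM after DHA and at 0.855, 0.184, 0.296, 0.238 and 2.70 CPM after vehicle, again in the order of the experiments. PTGS2 was at 3 CPM or less in every vehicle library and in 2 of the DHA libraries. PTGS2 differed by 2.51 ± 0.62 (SE) on the log2 scale and was higher in 5 of 5 experiments (adjusted p = 0.0188). PTGES stood at 30.2 to 375 CPM against 8.85 to 43.8 CPM (1.73, adjusted p = 0.0115). Leaving out 1 library ended the calls of PTGS2 (DHA+BTC 5 or Veh+BTC 1, 4 or 5, adjusted p = 0.052 to 0.118) and PTGES (DHA+BTC 4 or 5, adjusted p = 0.0527 to 0.0587). Neither was called without the 3 shallowest libraries.

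Among matrix proteases and their inhibitors, the proteases MMP1 and MMP3 and the inhibitors TFPI2, TIMP1 and SERPINE2 rose. Of 16 tested members 6 were called higher and 1 lower, with a median of 0.75. TFPI2, a secreted inhibitor of serine proteases, rose in each experiment. Levels of TFPI2 were 1131, 128, 461, 2137 and 2845 CPM after DHA and 152, 46.8, 25.7, 221 and 90.3 CPM after vehicle, in the same order. This gave TFPI2 a log2 difference of 3.33 ± 0.42 (SE, higher in 5 of 5 experiments, adjusted p = 6.14e-05). MMP1, the interstitial collagenase, had the smallest change in experiment 1, where the vehicle library was already high. The 5 DHA libraries gave 679.7, 201, 287, 1182 and 1318 CPM for MMP1 and the vehicle libraries 424, 28.6, 23.3, 171 and 104 CPM, in the order of the experiments. The difference for MMP1 was 2.69 ± 0.39 (SE, adjusted p = 0.0002), higher in 5 of 5 experiments. MMP3, stromelysin, was at 1.9 CPM or less in all vehicle libraries and reached 74.9 CPM after DHA (2.93, adjusted p = 0.00436), with 0 in both libraries of experiment 2. The inhibitor TIMP1, which blocks metalloproteinases, rose. TIMP1 stood at 604, 255, 1118, 1554 and 1246 CPM after DHA and at 384, 192, 483, 611 and 327 CPM after vehicle in experiments 1 to 5. TIMP1 differed by 1.11 ± 0.22 (SE) on the log2 scale and was higher in 5 of 5 experiments (adjusted p = 0.00471). SERPINE2, an inhibitor of serine proteases (1.01), and PLAUR, the urokinase receptor (1.57), were the other members called higher. TIMP3, a matrix-bound inhibitor, differed by -1.16. MMP2 and MMP14 had differences of -0.17 (-0.64 to 0.31) and 0.11 (-0.47 to 0.70). Calls that ended on leaving out 1 library were those of PLAUR (DHA+BTC 4 or 5 or Veh+BTC 1 or 5, adjusted p = 0.0548 to 0.117) and TIMP3 (DHA+BTC 4 or 5 or Veh+BTC 3, 4 or 5, adjusted p = 0.0545 to 0.131). With the 3 shallowest libraries left out, 3 of the 16 were called, all higher. SERPINB2, a plasminogen activator inhibitor and 1 of the 15 largest rises, was at 0 reads in 4 of 5 vehicle libraries and at 0.270 to 38.5 CPM after DHA (2.50, adjusted p = 0.0079). No vehicle library of this comparison reached the 1 CPM used for testing (highest 0.476 CPM). Its being tested thus rested on other libraries, those given DHA among them.

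The AP-1 motif TGANTCA was found on either strand in 2 of the 5 promoters of called members of this list in the table, those of TFPI2 and PLAUR, which were called higher, and not in that of TIMP3, called lower. It was found in none of the 4 not called that were in the table and in 7.76% of all promoters. Only 4 of the 6 members called higher and 4 of the 9 not called had a promoter there, so the others were not searched. The PLAUR window, at chr19:43670334-43670370 on the minus strand, 186 bases before the start of the gene, is given as an example with the motif in capitals:
PLAUR: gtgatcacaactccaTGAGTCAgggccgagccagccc

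Of 18 tested activation and contractile genes of stellate cells 6 were called lower and none higher, with a median of -0.65 (-0.79 without MYH11, which reached the level for testing only with the libraries given DHA). CALD1, caldesmon, was called in each single-library removal. CALD1 was at 261, 297, 80.4, 25.0 and 40.2 CPM after DHA and at 329, 559, 252, 70.0 and 120.4 CPM after vehicle, again in the order of the experiments. The levels of CALD1 ranged widely between experiments, and within each experiment the DHA library was lower. This gave CALD1 a log2 difference of -1.18 ± 0.19 (SE, lower in 5 of 5 experiments, adjusted p = 0.000575). TAGLN, transgelin, stood at 56.6, 145, 459, 76.2 and 33.7 CPM after DHA and 78.1, 222, 1239, 204 and 194 CPM after vehicle (-1.28, adjusted p = 0.00436). ACTA2, smooth muscle actin, the usual marker of the activated state, was at 27.1, 20.5, 37.1, 25.0 and 14.5 CPM after DHA and 49.0, 36.3, 101, 39.3 and 82.2 CPM after vehicle. Only DHA+BTC 3 lay above the lowest vehicle library. The difference for ACTA2 was -1.22 ± 0.33 (SE, adjusted p = 0.0317), lower in 5 of 5 experiments. MYL9 (-1.31), CNN1 (-1.07) and LMOD1 (-1.19) were the other members called. When 1 library was left out, calls ended for ACTA2 (DHA+BTC 3 or 5 or Veh+BTC 1, 3 or 5, adjusted p = 0.0629 to 0.163), MYL9 (DHA+BTC 5 or Veh+BTC 5, adjusted p = 0.0608 to 0.0637), CNN1 (DHA+BTC 1, 3, 4 or 5 or Veh+BTC 1, 3, 4 or 5, adjusted p = 0.051 to 0.127) and LMOD1 (DHA+BTC 3 or 5 or Veh+BTC 2, 3, 4 or 5, adjusted p = 0.0571 to 0.0948). In the fit without those 3 shallow libraries, 1 of the 18 was called, and edgeR and quantile normalization each called 3, all lower. RARRES2, a secreted chemoattractant, was the only 1 of 11 tested quiescence and retinoid genes called, where 3.55% of all genes tested were. Levels of RARRES2 were 0.547, 0, 1.86, 4.01 and 0 CPM after DHA and 1.43, 4.42, 13.0, 13.3 and 17.0 CPM after vehicle, in the same order. RARRES2 differed by -2.21 ± 0.47 (SE) on the log2 scale and was lower in 5 of 5 experiments (adjusted p = 0.00726). At equal depth RARRES2 differed by -1.9 and was not called (adjusted p = 0.0557 in limma).

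Targets of YAP and TEAD held 3 genes called lower of 16 tested, CCN2, ANKRD1 and AXL, and none called higher (median -0.40). CCN2, connective tissue growth factor, is both a YAP and a TGF-beta target. The 5 DHA libraries gave 39.9, 101, 65.9, 13.8 and 14.5 CPM for CCN2 and the vehicle libraries 74.4, 264, 298, 60.2 and 95.9 CPM, in the order of the experiments. As with CALD1, the experiments differed widely and each had the lower level after DHA. This gave CCN2 a log2 difference of -1.82 ± 0.27 (SE, lower in 5 of 5 experiments, adjusted p = 0.000261). AXL, a receptor tyrosine kinase, differed by -1.13 (adjusted p = 0.00587), ANKRD1 by -1.26, and CCN1, a close relative of CCN2, had 0.01 (-1.49 to 1.51). Of 24 tested TGF-beta ligands, receptors and targets, the ligand TGFB2 was lower and the family members INHBA and GDF15 were higher. The list's median was -0.10, and 1.08% of all genes tested were called higher and 2.46% lower. GDF15 stood at 149.6, 40.4, 68.0, 305 and 189 CPM after DHA and at 50.2, 9.40, 13.0, 57.1 and 78.2 CPM after vehicle in experiments 1 to 5. The difference for GDF15 was 1.90 ± 0.29 (SE, adjusted p = 0.000383), higher in 5 of 5 experiments. INHBA, the activin A subunit, stood at 247, 70.1, 43.6, 33.4 and 85.9 CPM after DHA and 37.9, 42.8, 27.5, 19.5 and 3.94 CPM after vehicle (1.78, adjusted p = 0.00402). TGFB2 stood at 1.64, 11.6, 4.95, 0 and 1.61 CPM and 9.98, 33.7, 42.3, 1.90 and 3.74 CPM (-1.76, adjusted p = 0.00539), and TGFB1 had a difference of 0.26 (-0.42 to 0.94). The call of ANKRD1 ended without DHA+BTC 1, 3 or 4 or Veh+BTC 1, 2, 3 or 4 (adjusted p = 0.0601 to 0.15).

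Of 39 tested collagens and matrix proteins 6 were called lower and none higher, where 2.46% of all genes tested were called lower. The median of the list was -0.08, above the -0.14 of all genes. COL1A2 was called (-1.58, adjusted p = 0.029), at 27.3, 16.2, 3.71, 6.24 and 1.61 CPM after DHA and 14.3, 73.2, 13.9, 19.5 and 28.4 CPM after vehicle, with the opposite direction in experiment 1. COL1A1 stood at 779 ± 595 CPM and 948 ± 429 CPM (SD, n = 5), a difference of -0.53 (-0.99 to -0.07) that did not pass in limma (adjusted p = 0.192). COL3A1 had -0.65 (-1.20 to -0.09), COL4A1 0.01 (-0.52 to 0.54) and fibronectin FN1 -0.10 (-0.43 to 0.23). The other members called were MATN2, a filament-forming matrix protein (-1.91), the thrombospondins THBS1 (-1.45) and THBS2 (-0.86), the crosslinking enzyme LOXL1 (-1.07) and FBLN1, fibulin 1 (-0.92). At equal depth MATN2 and COL1A2 differed by -1.3 and -1.24 and were not called (adjusted p = 0.12 and 0.137 in limma). The removal of 1 library ended the calls of COL1A2 (DHA+BTC 3 or 5 or Veh+BTC 2, 3, 4 or 5, adjusted p = 0.0572 to 0.168), THBS1 (DHA+BTC 3 or 5 or Veh+BTC 3 or 5, adjusted p = 0.05 to 0.127), THBS2 (DHA+BTC 3, 4 or 5 or Veh+BTC 1, 4 or 5, adjusted p = 0.0594 to 0.115), LOXL1 (DHA+BTC 5, adjusted p = 0.061) and FBLN1 (DHA+BTC 1, 3 or 4 or Veh+BTC 1, 3, 4 or 5, adjusted p = 0.0581 to 0.0887). After removal of the 3 shallowest libraries, 1 of the 39 was called, as was 1 in edgeR, each lower. Of 15 tested integrins ITGA2 (1.54), ITGA5 (0.92) and ITGB5 (0.59) were called higher and ITGB4 (-1.12) lower, the last without overlap. The integrin median was -0.05. Among all genes tested 1.08% were called higher and 2.46% lower, and 0.542% were lower without overlap. Without the 3 shallowest libraries none of the 15 was called. Calls ended in the same way for ITGA2 (DHA+BTC 5, adjusted p = 0.0516), ITGA5 (DHA+BTC 3, 4 or 5 or Veh+BTC 2, adjusted p = 0.0524 to 0.0671), ITGB5 (DHA+BTC 3, 4 or 5 or Veh+BTC 2, 3 or 5, adjusted p = 0.0593 to 0.135) and ITGB4 (DHA+BTC 5, adjusted p = 0.0506).

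Part of the hypoxia response and glycolysis list rose. Of 30 tested members 9 were called higher and none lower, with a median of 0.46 and 26 positive differences. In 4 of the 30 every DHA library lay above every vehicle library, against 0.218% of all genes tested. BNIP3, a mitophagy receptor and a classical hypoxia target, was higher in every DHA library. BNIP3 was at 110.2, 67.1, 69.0, 92.3 and 113 CPM after DHA and at 21.4, 41.5, 27.8, 40.2 and 47.7 CPM after vehicle, again in the order of the experiments. BNIP3 differed by 1.34 ± 0.21 (SE) on the log2 scale and was higher in 5 of 5 experiments (adjusted p = 0.000517). The glucose transporter SLC2A3 showed the same order. Levels of SLC2A3 were 119.8, 50.7, 58.5, 62.0 and 173 CPM after DHA and 45.0, 29.9, 16.5, 35.7 and 32.2 CPM after vehicle, in the same order. This gave SLC2A3 a log2 difference of 1.41 ± 0.24 (SE, higher in 5 of 5 experiments, adjusted p = 0.00125). PFKFB3, which makes the activator of phosphofructokinase, stood at 117 to 482 CPM against 40.5 to 102 CPM (1.53, adjusted p = 0.00238). ANKRD37 (1.26), the transporter SLC2A1 (1.12), hexokinase HK2 (1.39), lactate dehydrogenase LDHA (1.12), PGK1 (0.97) and ENO2 (0.95), both glycolytic enzymes, were the other members called. HIF1A, the oxygen-regulated factor, had a difference of 0.04 (-0.28 to 0.37), VEGFA had 1.54 (adjusted p = 0.0688) and GAPDH 0.43 (adjusted p = 0.473). Calls that ended on leaving out 1 library were those of ANKRD37 (DHA+BTC 5 or Veh+BTC 1, 3 or 5, adjusted p = 0.0555 to 0.127), SLC2A1 (DHA+BTC 5, adjusted p = 0.0576), HK2 (DHA+BTC 1 or 5 or Veh+BTC 1 or 5, adjusted p = 0.0555 to 0.0733) and LDHA (Veh+BTC 5, adjusted p = 0.0561). Without the 3 shallowest libraries 4 of the 30 were called, all higher.

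The core of the hypoxia response element, ACGTG, was found on either strand in 6 of 8 promoters of the called genes, in 3 of 18 of those not called, and in 21.6% of all promoters. A window is shown for PGK1, at chrX:78104031-78104065 on the plus strand, where the motif starts 202 bases before the start of the gene, and for BNIP3, at chr10:131982037-131982071 on the minus strand, where it starts 133 bases before. The motif is in capitals:
PGK1: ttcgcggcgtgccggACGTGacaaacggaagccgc
BNIP3: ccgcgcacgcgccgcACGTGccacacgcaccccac

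Of 25 tested NRF2 antioxidant and iron genes 4 were called higher, the autophagy adaptor SQSTM1, the metallothionein MT2A, the cystine transporter SLC7A11 and the heme oxygenase HMOX1, and none lower, with a median of 0.40. The 5 DHA libraries gave 1232, 597, 1188, 1707 and 2541 CPM for SQSTM1 and the vehicle libraries 581, 339, 598, 1152 and 683 CPM, in the order of the experiments. The difference for SQSTM1 was 1.07 ± 0.18 (SE, adjusted p = 0.00142), higher in 5 of 5 experiments. MT2A stood at 2193 to 10983 CPM against 1237 to 4827 CPM (1.17, adjusted p = 0.00559). SLC7A11 differed by 1.26 and HMOX1 by 0.99. NQO1, a standard NRF2 target, had 0.51 (adjusted p = 0.0766) and GPX4, which reduces lipid peroxides, -0.42 (-0.80 to -0.04). Of 25 tested ATF4 and endoplasmic reticulum stress genes 5 were called higher and none lower, with a median of 0.19. DDIT4, an inhibitor of mTORC1, was highest in DHA+BTC 5. DDIT4 stood at 132, 48.0, 68.7, 184 and 1613 CPM after DHA and at 21.9, 34.3, 15.4, 70.9 and 23.2 CPM after vehicle in experiments 1 to 5. DDIT4 differed by 2.50 ± 0.51 (SE) on the log2 scale and was higher in 5 of 5 experiments (adjusted p = 0.00533). STC2 (1.40), CEBPB (1.26), DDIT3, the factor CHOP (1.08), and PPP1R15A (1.04) were the others. HSPA5, the main chaperone of the endoplasmic reticulum, had 0.22 (-0.16 to 0.59) and ATF4 0.48 (-0.06 to 1.02). When 1 library was left out, calls ended for HMOX1 (DHA+BTC 3, 4 or 5 or Veh+BTC 2, 3 or 4, adjusted p = 0.0505 to 0.115) and CEBPB (DHA+BTC 5 or Veh+BTC 1 or 5, adjusted p = 0.0587 to 0.0915). With the 3 shallowest libraries left out, 2 members of the first list and 3 of the second were called, all higher.

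Of 41 tested cell cycle genes 9 were called lower, 1 higher and 31 neither, with a median of -0.43 and 34 negative differences. None was called without the 3 shallowest libraries, edgeR called 2 lower and median-of-ratios scaling 3 lower and 2 higher. TOP2A, topoisomerase 2, differed most. TOP2A was at 651, 1629, 177, 41.9 and 108 CPM after DHA and at 1073, 2471, 409.9, 212 and 273 CPM after vehicle, again in the order of the experiments. This gave TOP2A a log2 difference of -1.23 ± 0.24 (SE, lower in 5 of 5 experiments, adjusted p = 0.00378). MCM7, a subunit of the replicative helicase, was lower without overlap, at 245 to 339 CPM against 390.0 to 573 CPM (-0.65, adjusted p = 0.00703). MKI67, the proliferation marker Ki-67, stood at 160.2, 337, 49.2, 15.2 and 51.4 CPM after DHA and 292, 349, 52.6, 53.6 and 137 CPM after vehicle (-0.83, adjusted p = 0.0277). The mitotic genes TPX2 (-0.97), AURKB (-0.77), BIRC5 (-0.68) and CCNB1 (-0.63) and the S-phase genes MCM5 (-0.73) and TYMS (-0.54) were also called lower. CDKN1A, the inhibitor p21, was the member called higher (0.76). The removal of 1 library ended the calls of MKI67 (DHA+BTC 4 or 5 or Veh+BTC 1, 4 or 5, adjusted p = 0.0621 to 0.123), TPX2 (DHA+BTC 5, adjusted p = 0.0551), AURKB (DHA+BTC 1, 3, 4 or 5 or Veh+BTC 1, 4 or 5, adjusted p = 0.0521 to 0.214) and BIRC5 (DHA+BTC 3, 4 or 5 or Veh+BTC 3, 4 or 5, adjusted p = 0.0567 to 0.131). Calls ended in the same way for CCNB1 (DHA+BTC 3, 4 or 5 or Veh+BTC 3, 4 or 5, adjusted p = 0.0755 to 0.109), MCM5 (DHA+BTC 1, 3 or 5 or Veh+BTC 1, 3 or 5, adjusted p = 0.0865 to 0.198), TYMS (DHA+BTC 2, 3, 4 or 5 or Veh+BTC 1, 2, 4 or 5, adjusted p = 0.0641 to 0.132) and CDKN1A (DHA+BTC 3, 4 or 5 or Veh+BTC 2, 3, 4 or 5, adjusted p = 0.0696 to 0.141).

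None of 12 tested ErbB receptors, ligands and adaptors was called, against 3.55% of all genes tested. EGFR stood at 66.7, 64.4, 19.5, 6.24 and 34.5 CPM after DHA and 31.4, 49.4, 18.6, 15.2 and 16.8 CPM after vehicle, a difference of 0.27 (-0.25 to 0.78). ERBB2 had -0.70 (-1.16 to -0.24, adjusted p = 0.0778), and passed without DHA+BTC 2 (adjusted p = 0.0403) or without Veh+BTC 2 (adjusted p = 0.0426). ERBB4 had 0 reads and BTC, the ligand's own gene, 1 read in the 10 libraries together. Of 27 tested ERK feedback and immediate early genes 2 were called higher, IER3 and PHLDA1, and none lower. Over all genes tested 1.08% were called higher, and the median was -0.14 against 0.22 for this list. Levels of IER3 were 8284, 2867, 6329.9, 15156 and 16110.1 CPM after DHA and 5609.9, 988, 1552, 2913 and 3678 CPM after vehicle, in the same order. The difference for IER3 was 1.73 ± 0.28 (SE, adjusted p = 0.000575), higher in 5 of 5 experiments. PHLDA1 differed by 0.96. DUSP6, a phosphatase that ERK induces and that acts back on it, was at 219 ± 167 CPM against 90.9 ± 61.0 CPM (SD, n = 5) and did not pass (adjusted p = 0.0801 in limma). The call of PHLDA1 ended without DHA+BTC 5 (adjusted p = 0.0731). None of 23 tested interferon-induced genes was called, where 3.55% of all genes tested were. Their median was -0.01 (-0.03 without IFI6, which reached the level for testing only with the libraries given DHA).

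Of 21 tested secreted hormone and vasoactive genes 2 were called higher and 4 lower, where 1.08% and 2.46% of all genes tested were. The median of the list was -0.20, against -0.14 for all genes. STC1, stanniocalcin 1, a secreted glycoprotein, rose without overlap. The 5 DHA libraries gave 1281, 256, 300.3, 337 and 1248 CPM for STC1 and the vehicle libraries 188, 47.4, 23.9, 114 and 36.3 CPM, in the order of the experiments. STC1 differed by 3.08 ± 0.41 (SE) on the log2 scale and was higher in 5 of 5 experiments (adjusted p = 6.14e-05). IGFBP5, which binds insulin-like growth factors, fell in every experiment. IGFBP5 stood at 95.7, 325, 171, 29.0 and 53.0 CPM after DHA and at 176, 769, 894, 180.2 and 350.1 CPM after vehicle in experiments 1 to 5. This gave IGFBP5 a log2 difference of -1.96 ± 0.26 (SE, lower in 5 of 5 experiments, adjusted p = 6.14e-05). ADRA1B, an adrenergic receptor, stood at 1.09, 9.98, 8.66, 0.891 and 0 CPM after DHA and 9.69, 14.6, 28.1, 11.9 and 12.7 CPM after vehicle (-2.20, adjusted p = 0.00142). The apelin gene APLN (-1.98) and the receptor tyrosine kinase KIT (-1.71) were the other members called lower. Calls that ended on leaving out 1 library were those of APLN (DHA+BTC 4 or 5 or Veh+BTC 5, adjusted p = 0.0509 to 0.0952) and KIT (DHA+BTC 3 or 5 or Veh+BTC 1 or 5, adjusted p = 0.0515 to 0.0888).

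Most of the 14 falls named by size had 0 reads in the shallow library DHA+BTC 5, where 0 allows up to 2.41 CPM. SERPINB9, an inhibitor of granzyme B, and TMEM255A, a membrane protein, were lower without overlap. SERPINB9 was at 3.83, 3.78, 1.55, 0.446 and 0 CPM after DHA and at 7.70, 12.9, 10.6, 7.38 and 11.6 CPM after vehicle, again in the order of the experiments. The difference for SERPINB9 was -2.16 ± 0.37 (SE, adjusted p = 0.00151), lower in 5 of 5 experiments. TMEM255A stood at 1.64, 7.28, 1.55, 2.67 and 0 CPM after DHA and 12.0, 13.1, 7.68, 8.33 and 25.3 CPM after vehicle (-2.18, adjusted p = 0.0018). GFRA1, a receptor subunit for GDNF, stood at 12.8, 46.4, 6.80, 3.57 and 1.61 CPM and 30.8, 103, 44.3, 10.2 and 39.0 CPM (-2.02, adjusted p = 0.00256). LY6K (-2.10), VGLL2 (-2.06), TUB (-2.00), CPA4 (-1.95) and the keratin KRT81 (-1.92) were the other protein-coding genes. The histone gene H4C3 (-2.17) and the small nucleolar RNA SNORD13 (-2.20) were also among them. When 1 library was left out, calls ended for LY6K (DHA+BTC 5, adjusted p = 0.064), TUB (DHA+BTC 5, adjusted p = 0.0606), CPA4 (DHA+BTC 4 or 5 or Veh+BTC 4 or 5, adjusted p = 0.054 to 0.131), KRT81 (DHA+BTC 5 or Veh+BTC 5, adjusted p = 0.0672 to 0.0778) and H4C3 (Veh+BTC 5, adjusted p = 0.0528).

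**Figure D3:**
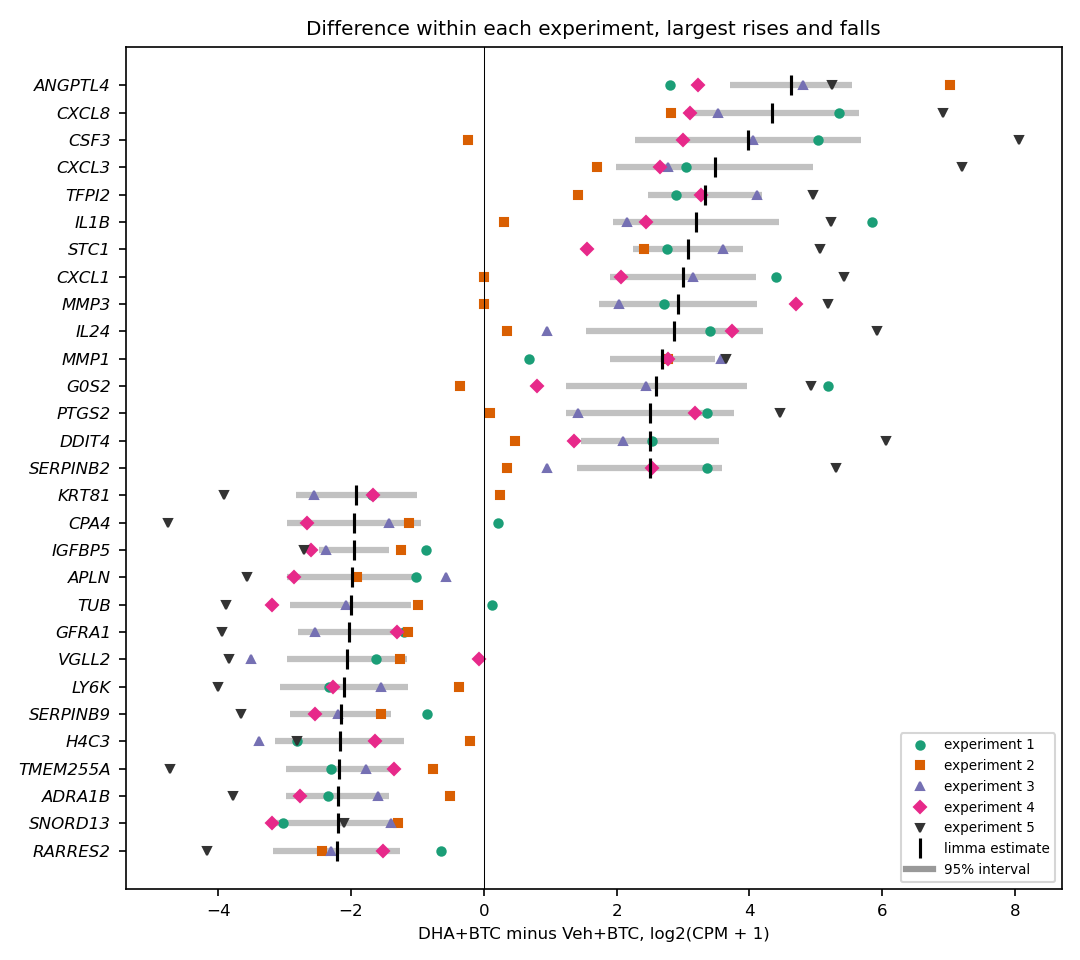
Difference between DHA+BTC and Veh+BTC within each experiment (coloured symbols), in log2(CPM + 1), for the 15 rises and 14 falls named by size, with the limma estimate (black tick) and its 95% interval (grey bar). Experiment 5 lies at the outer end for most genes, and experiment 2 lies near 0 for many of the cytokine genes.

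The size of the response varied between experiments. Over the 537 genes called, the median difference in the called direction was 1.04, 0.43, 1.16, 1.02 and 1.82 in experiments 1 to 5. It was smallest in experiment 2 and largest in experiment 5, the experiment with the shallowest DHA library. CSF3, IL1B, CXCL1, MMP3, IL24, PTGS2 and DDIT4 differed by -0.24, 0.30, 0.01, 0.00, 0.34, 0.10 and 0.47 in experiment 2. In that experiment ANGPTL4 differed by 7.02, more than in any other experiment, and PLIN2 by 2.25. Leaving out all libraries of experiment 2 gave 1015 calls, and leaving out experiment 1, 3, 4 or 5 gave 312, 126, 242 and 144.

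**Figure D4:**
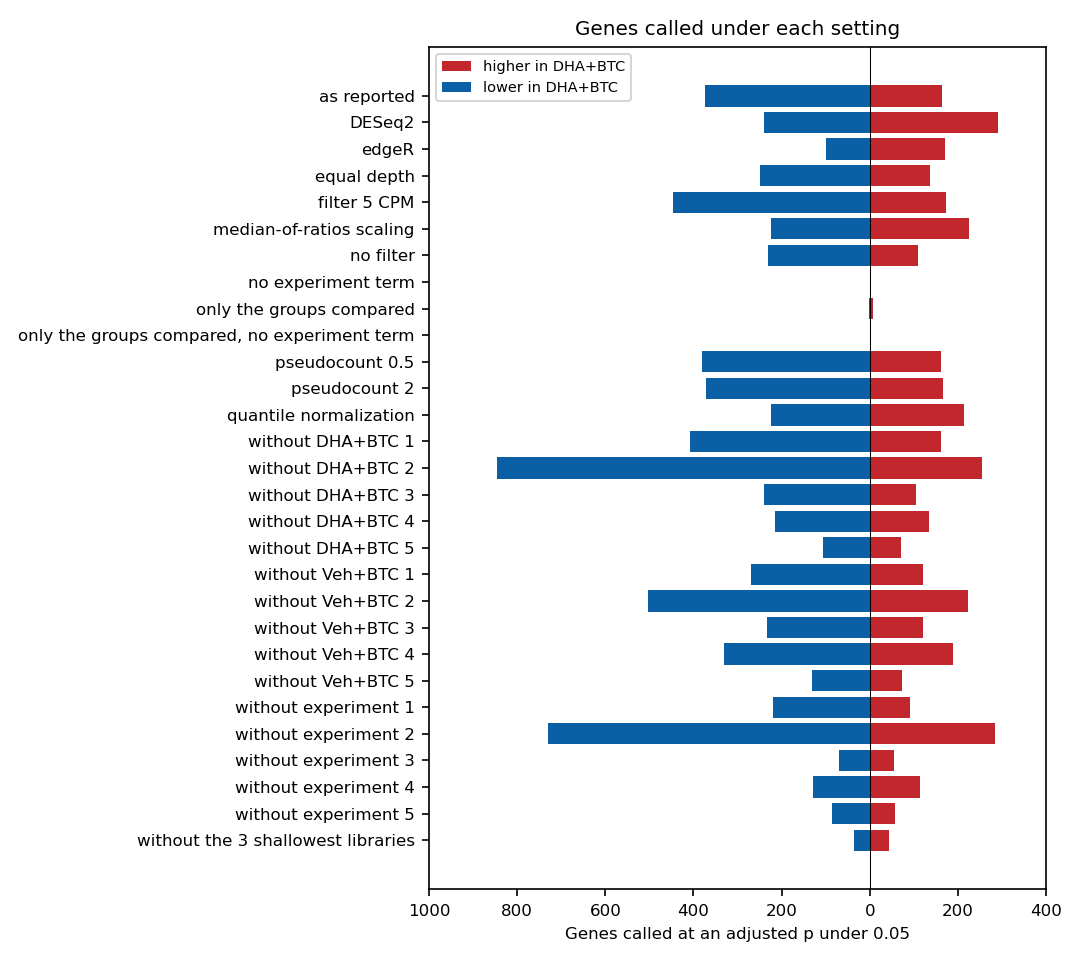
Number of genes called at an adjusted p under 0.05 in DHA+BTC against Veh+BTC under each setting, with genes higher after DHA to the right of 0 and genes lower to the left. The bars run from 1101 genes without DHA+BTC 2 to 1 gene without the experiment term.

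The other fatty acid, at a matched dose and time, was set beside DHA for the same genes. With BTC, oleic acid against vehicle had 0 genes called of 15137 (0.0%, limma, with 1044 at an unadjusted p under 0.05), and DHA against oleic acid had 261 called (1.72%), 92 higher after DHA and 169 lower. The split of that count was 126 higher and 81 lower after scaling by median of ratios, 124 and 85 after quantile normalization, 116 and 49 in edgeR and 206 and 105 in DESeq2. Without the experiment term 1 gene was called against oleic acid, and with only those 10 libraries 5 were. Leaving out DHA+BTC 1 or DHA+BTC 2 gave 474 and 408 calls, leaving out DHA+BTC 3, DHA+BTC 4 or DHA+BTC 5 gave 134, 120 and 80, and leaving out OLA+BTC 3, OLA+BTC 4 or OLA+BTC 5 gave 93, 71 and 75. These comparisons share the DHA+BTC or the Veh+BTC libraries with the main one. ANGPTL4 stood at 17.5 ± 9.92 CPM after oleic acid (SD, n = 5) and was 3.55 higher after DHA in limma (adjusted p = 0.000121). Its oleic acid difference from vehicle was 1.07 (0.15 to 1.99), which did not pass after adjustment. PLIN2 stood at 207 ± 152 CPM after oleic acid, 0.84 above vehicle (0.27 to 1.41). DHA was 0.86 above oleic acid for PLIN2 (0.29 to 1.43, adjusted p = 0.11 in limma), which did not pass. For CXCL8, TFPI2, STC1 and MMP1 the difference of DHA from oleic acid was 3.58, 3.13, 2.53 and 2.55 (adjusted p = 0.00267, 0.000216, 0.000782 and 0.00037). GDF15 was 1.85 higher than after oleic acid, and IGFBP5 and CCN2 differed by -1.85 and -1.83 (adjusted p = 0.000585, 0.000236 and 0.000313). CXCL3 differed by 2.26 (0.77 to 3.75, adjusted p = 0.107), which did not pass.

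**Figure D5:**
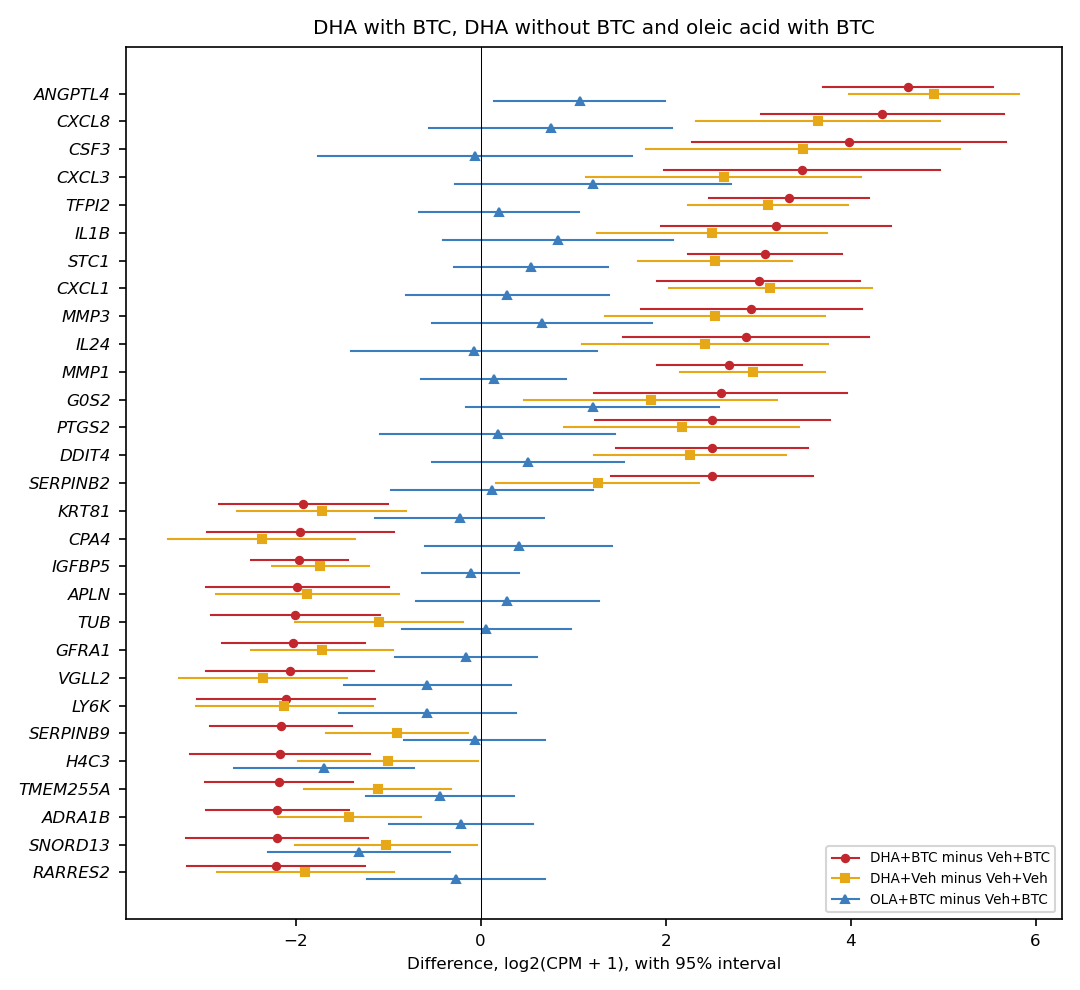
Differences in log2(CPM + 1) with 95% intervals from limma for the 15 rises and 14 falls named by size, for DHA with BTC (red circles), DHA without BTC (yellow squares) and oleic acid with BTC (blue triangles), each against its vehicle. The red and yellow symbols lie on the same side of 0 for all 29 genes, and the blue intervals include 0 for all but ANGPTL4, H4C3 and SNORD13.

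The DHA response with BTC was also set against the response without BTC, by the interaction in the same fit. No gene of 15137 was called (0.0%, limma, with 527 at an unadjusted p under 0.05), and edgeR and DESeq2 called none either (427 and 501 at an unadjusted p under 0.05). ANGPTL4 differed by 4.62 with BTC and by 4.90 without, and the difference between these was -0.28 (-1.58 to 1.02). For CXCL8 the values were 4.34 and 3.65, with 0.69 (-1.17 to 2.55) between them. For CCN2 they were -1.82 and -1.53, with -0.29 (-1.06 to 0.48). SERPINB9 and TGFB2 had unadjusted p = 0.0251 and 0.0234 for this difference, and their adjusted p was 0.983 for SERPINB9 and 0.983 for TGFB2.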

How the data were processed

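RNA of 30 LX2 cultures was read with a QuantSeq 3′ kit, per the labels' protocols, and 10 libraries entered the comparison described here. The authors deposited 1 table of CPM values (counts per 1000000 reads) for 61597 genes, in which each library sums to 1000000. Alignment with STAR 2.5.3a and counting with HTSeq 0.6.0 are named in the submitters' processing notes, while the sources used here give no genome build, annotation or use of strand, and overlapping, antisense and near-identical genes can share reads. A table of symbols matched 61444 of the gene identifiers (99.8%). CPM steps in the deposited table gave whole reads, within 0.01 read, for 100% of values in every library. These reads were used for depth, for edgeR 4.0.16 and for DESeq2 1.42.0.

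The test was limma 3.58.1 (R 4.3.3, with trend) on log2(CPM + 1). It covered 15137 genes that reached 1 CPM in 5 or more of the 30 libraries, 13901 of them with a symbol. A single fit of all 30 libraries took group and experiment as terms. All tests are two-sided, with Benjamini-Hochberg adjustment over all genes tested. Every adjusted p of a gene is from limma unless another tool is named, and intervals are 95% intervals from limma. Differences on this scale understate the change of low genes. The experiment term was used because each experiment, which the labels name, holds every group. In the 2 groups compared, deviations of libraries of 1 experiment from their group means correlated by 0.161 to 0.492, against a median of -0.141 between experiments. Deviations from a group mean cancel out within the group, so positive values within experiments bring negative ones between them. Whether the experiments were separate passages is not stated, and the p-values then cover only the spread among cultures of a single line. The fit was also run on simulated counts, drawn with the same spread setting for every gene. That run does not show how the fit behaves with the spread of these data.

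Genes named were the 15 called genes that rose most and the 15 that fell most, given a symbol, a group mean of 5 CPM or more and 4 or more of 5 experiments agreeing in direction, and called or well-known members of 27 gene lists. The lists hold 570 genes, of which 569 were found, 504 tested and 110 called. Another 6 genes of the lists, 1 of them among the 15 falls, are not reported here and were left out of the counts and medians of lists. SOD2 was not found. The comparison, the lists and the members were chosen with earlier results of these data known. Alternatives were the pseudocount, the filter, the scaling, the test, the experiment term, the libraries in the fit, equal depth and leaving out libraries or experiments.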

Additional observations from a re-analysis of the deposited data

Results flagged for a closer look

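In the 2 groups compared, 90 sets of 5 values of named genes were checked for 1 library far from the other 4. The limit was a gap over 0.71 of the whole range, which chance gives in about 1 of 20 sets of normally distributed values. Levels near 0 CPM do not follow that distribution, so the rate may not hold for them. With this limit 4 sets were found, and for IL24 and SERPINB2 the gap was the whole range. In all 4 the library was Veh+BTC 4, the highest of its group for CSF3 (9.52 CPM), IL24 (2.14 CPM), G0S2 (119 CPM) and SERPINB2 (0.476 CPM).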

How the results depend on the processing

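DHA+BTC against Veh+BTC gave 537 calls, and DHA+BTC against OLA+BTC 261. The paired design was carried by the experiment term. With no replicate block 1 gene was called in each comparison, and with only the libraries of the groups compared 9 and 5. With both changes together, an alternative chosen after seeing the data, 1 gene was called in the first comparison. In edgeR the counts were 270 and 165, and with no filter on low values 342 and 95. At equal depth DHA against oleic acid had 170 calls. Without the 3 shallowest libraries 79 and 28 genes were called. Leaving out 1 library or 1 experiment gave 126 to 1101 calls for DHA against vehicle and 34 to 474 for DHA against oleic acid. The causes were not tested. The interaction with BTC had 0 calls under every alternative run.

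All 121 called genes described kept their direction under every alternative in which they were tested. DESeq2 called 106 of them, edgeR 81, median-of-ratios scaling 102, quantile normalization 103 and equal depth 100, and 41 were called without the 3 shallowest libraries. A call was kept in 27 of the 121 when any 1 library or any 1 experiment was left out and also without the shallowest libraries. At equal depth ACTA2 and COL1A2 were among those not called (adjusted p = 0.0637 and 0.137 in limma). So were LIPE, PNPLA3, MYLIP and TNFAIP6 (adjusted p = 0.315, 0.26, 0.344 and 0.191 in limma). Depth limits the low genes most, since 0 reads in DHA+BTC 5 allows up to 2.41 CPM.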

Other observations

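Replication-dependent histone genes, a group chosen after its values were seen, held 2 genes called lower and none called higher of 30 tested, H4C3 (-2.17, adjusted p = 0.00892) and H1-10 (-0.71, adjusted p = 0.0486), with a median difference of -0.24. Their messages mostly lack a poly(A) tail, so that a kit primed on that tail reads them in part. Of 26 tested mitochondrially encoded genes 1 was called lower, MT-ATP8 (-1.26, adjusted p = 0.0401), and none higher. Their median was -0.14, the same as for all genes. Beside the histone and mitochondrial counts, 2.46% of all genes tested were called lower and 1.08% higher. MT-CO3, a subunit of cytochrome oxidase, stood at 6800 CPM after DHA and 12330 CPM after vehicle on average (adjusted p = 0.0516), and MT-ND1 at 428 CPM and 307 CPM (adjusted p = 0.285).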
